A study of Mus musculus with 15 samples.

Results

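The nuclear genes of the mitochondrial respiratory chain and of the ATP synthase were followed over 5 groups of mouse myeloid cells. The genes were taken by symbol: all whose single symbol begins with Nduf, Uqcr, Cox4, Cox5, Cox6, Cox7, Cox8 or Atp5, together with Sdha, Sdhb, Sdhc, Sdhd and Cycs. This gave 90 of the 22180 genes that had a probe set of 1 symbol. They comprised 34 genes of complex I, 8 complex I assembly factors (the Ndufaf genes, which are not subunits), 4 of complex II, 7 of complex III, 17 of complex IV, 17 of complex V, Cycs and 2 pseudogenes. Genes entered the tests if 3 or more arrays put their signal over the array's own 40th percentile, which 84 of the 90 did. The other 6 were Ndufa4l2, Cox7b2, Cox8b, Cox8c, Uqcrh-ps1 and Atp5c1-ps. A further 9 symbols of the same families were only on probe sets shared with other genes and were not analysed here.

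The respiratory chain sits in the inner mitochondrial membrane and passes electrons from NADH and succinate to oxygen. Complex I (NADH dehydrogenase) and complex II (succinate dehydrogenase, also an enzyme of the citric acid cycle) feed electrons to ubiquinone, complex III passes them to cytochrome c, and complex IV (cytochrome c oxidase) reduces oxygen. The protons pumped on the way drive complex V, the ATP synthase. Complexes I, III, IV and V combine subunits encoded in the nucleus with core subunits encoded in the mitochondrial genome, and several complex IV subunits exist as isoforms with tissue-restricted expression. Mature neutrophils are known for few mitochondria and a reliance on glycolysis.

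Each group held 3 arrays, and all mice were C57Bl/6 or, for GFK, labelled iNOS knockout. The groups GFW and RB were both cells from the spleens of wild-type mice treated with G-CSF, sorted as CD11b+CD34+ after removal of cells with CD4, CD8, Ly6G, B220 or Ter119, and differed only in the code of their titles. GFE held the same kind of cells after 3 days in Stemspan with Flt3 ligand and SCF (stem cell factor), and GFK such uncultured cells from G-CSF-treated mice labelled iNOS knockout. MDSC were Ly6C+CD11b+ myeloid-derived suppressor cells grown from wild-type bone marrow with G-CSF, GM-CSF and IL-13. The G-CSF dose, the mice's age and sex, and any pooling are unstated in the labels. Neither do the labels say that the 3 arrays of a group came from separate animals or cultures, so p-values reflect how much these arrays varied, and that variation may be technical.

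Several genes of the gates went against the labels. Nos2, the gene of iNOS, was at 8.28 ± 0.17 log2 (SD, n = 3) in GFW and at 8.89 ± 0.05 in GFK. It was thus higher, not lower, on the arrays labelled knockout (0.61, limma adjusted p = 0.0125). Which exons its probe set reads is not known here. Ly6g, whose product the sort removed, was at 12.19 in GFW and 12.08 in GFK, against 6.28 in RB, 5.80 in MDSC and 4.22 in GFE. Cd34, on which the cells were sorted, was at 7.19 in GFW and 5.92 in RB, and rose to 11.28 in GFE, while Itgam (CD11b) was at 11.67, 11.38 and 7.94 in these groups. The sets GFW and RB thus differed in markers of the gate despite the same labels, and both are kept apart below. GFW, GFE and GFK titles share a prefix, while RB and MDSC each have their own, so in RB or MDSC comparisons the title prefix and the group cannot be told apart.

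Values are log2 RMA signals (RMA corrects background, equalises the distributions of the arrays and summarises probes), the array medians were 5.52 to 5.72, and group means carry the SD over 3 arrays. A gene was called higher or lower at an adjusted p (limma, Benjamini-Hochberg over 14822 genes) under 0.05. Probe sets differ in efficiency, so a signal is compared between samples and not between genes. In these bulk samples fewer cells of a type and less RNA per cell cannot be told apart.

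Respiratory chain genes were lowest in the uncultured mobilised cells GFW and GFK and highest in MDSC. Of the 84 genes tested, 64 had their highest group mean in MDSC, 11 in GFE, 6 in RB, 3 in GFW and 0 in GFK. The lowest group mean fell in GFK for 56 genes and in GFW for 12. These 2 groups differed little, with a median of -0.114 log2 in GFK minus GFW and 1 of 84 genes called. Such counts of highest and lowest groups were not made over all genes. With each gene set to its mean over the 15 arrays, the median over the 84 genes was -0.347, -0.347 and -0.307 log2 on the GFW arrays and -0.476, -0.505 and -0.372 on the GFK arrays. It was 0.143, 0.214 and 0.160 on the GFE arrays, 0.158, 0.088 and -0.049 on the RB arrays and 0.528, 0.536 and 0.469 on the MDSC arrays. The MDSC arrays all lay above every other array, and GFW and GFK below every GFE and RB array. Over all 14822 genes the same median stayed between -0.072 and 0.016 on every array.

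**Figure D1:**
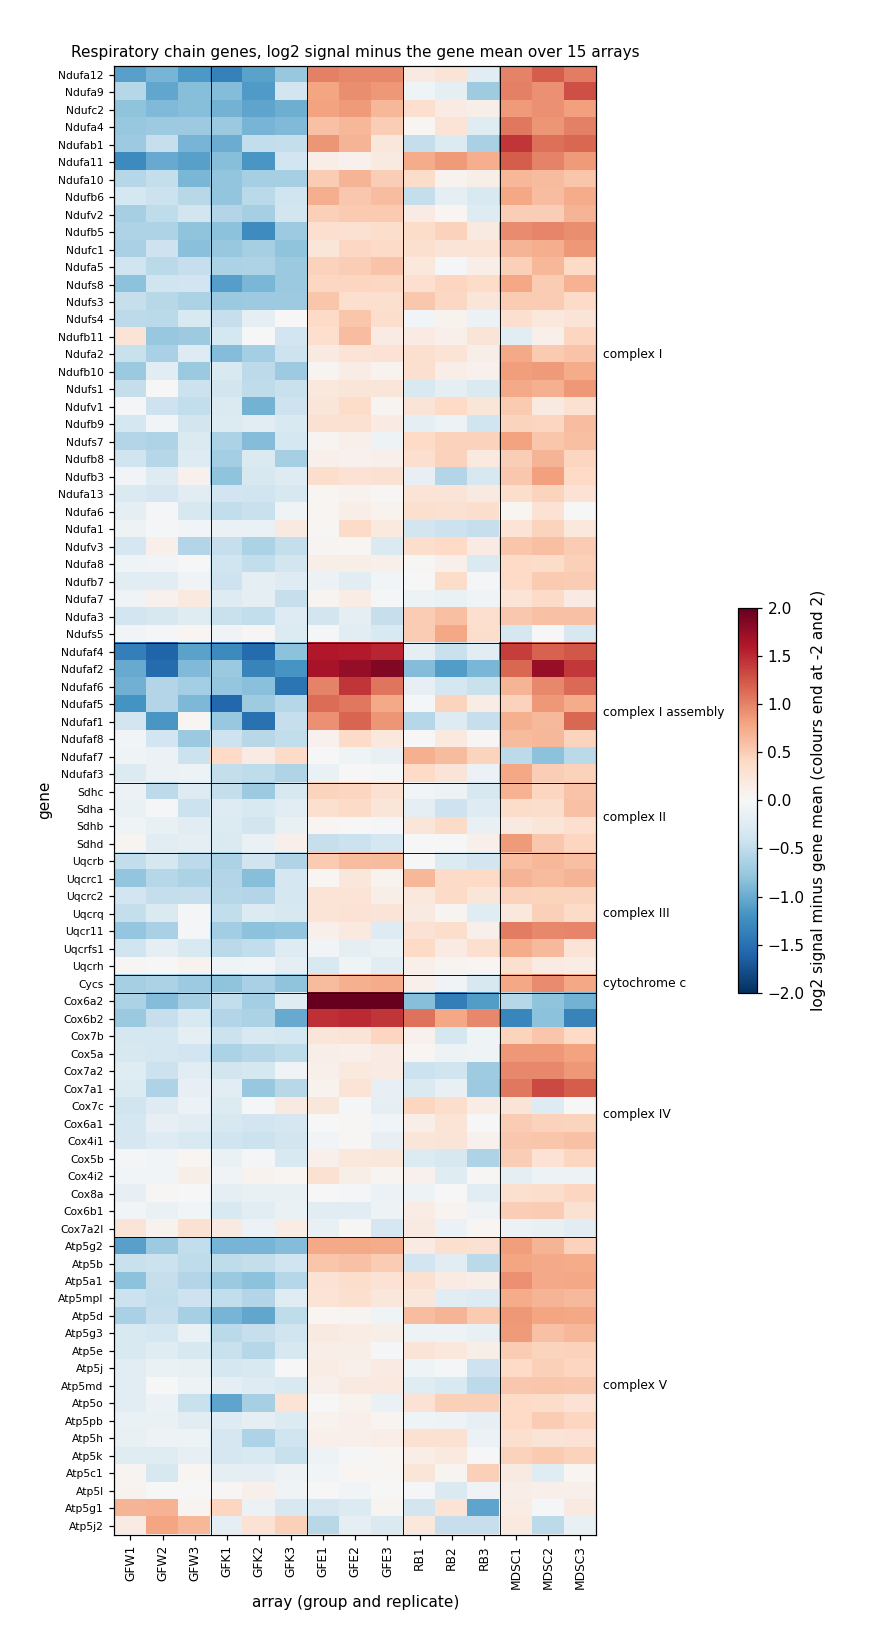
Heatmap of the 84 tested respiratory chain genes (rows, by complex) on the 15 arrays (columns, by group and replicate), coloured by log2 signal minus the gene's mean over all arrays, with colours ending at -2 and 2. Blue columns in GFW and GFK and red columns in MDSC run through most rows of every complex, and Cox6a2, Cox6b2, Ndufaf7, Atp5g1 and Atp5j2 are among the rows that depart from this.

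After 3 days of culture (GFE minus GFW), 56 of 84 genes were higher, where 35.1% of all genes tested were higher, and 5 were lower, where 31.9% were lower. The median difference of the 84 genes was 0.516 log2 (1.43-fold), against -0.061 over all genes. MDSC exceeded GFW in 69 genes and were below it in 4, with a median of 0.855 log2 (1.81-fold), against 32.3% higher, 30.0% lower and a median of -0.078 over all genes. Against the other mobilised set, MDSC minus RB, 53 genes were higher and 3 lower with a median of 0.419 log2 (1.34-fold), where 27.4% of all genes were higher, 20.7% lower and the median was 0.044. RB exceeded GFW in 47 genes and was below it in 6, with a median of 0.398 log2 (1.32-fold), against 25.8% higher, 26.5% lower and a median of -0.059 over all genes. GFE, RB and MDSC were each set against the same GFW arrays, so these comparisons are not independent.

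The number called depended on how arrays were scaled. Subtracting from each array its median over the genes tested moved the median of all genes to -0.375 in GFE minus GFW, -0.201 in RB minus GFW and -0.339 in MDSC minus GFW. With this scaling 35 respiratory chain genes were higher and 12 lower in GFE minus GFW (26.3% and 51.9% of all genes), and 37 higher and 11 lower in RB minus GFW (20.9% and 38.0%). Of the 61 calls of GFE minus GFW 21 were lost, among them Ndufs1, Ndufaf8, Sdha, Uqcr11, Cox5a, Cox7a2 and Atp5g3, and of the 53 of RB minus GFW 10, among them Ndufa9, Ndufaf3, Ndufaf8, Cox5a and Sdhb. Such a scaling shifts all genes of an array alike, so the median of the 84 genes minus that of all genes (0.577 in GFE minus GFW and 0.457 in RB minus GFW) cannot change with it. Among the lower genes, leaving out any 1 of the 6 arrays of GFE minus GFW left 2 or 3 of the 5 calls. In RB minus GFW 3 lower calls were left without GFW replicate 2 or without RB replicate 3, and in MDSC minus GFW 2 were left without GFW replicate 3 or MDSC replicate 2.

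**Figure D2:**
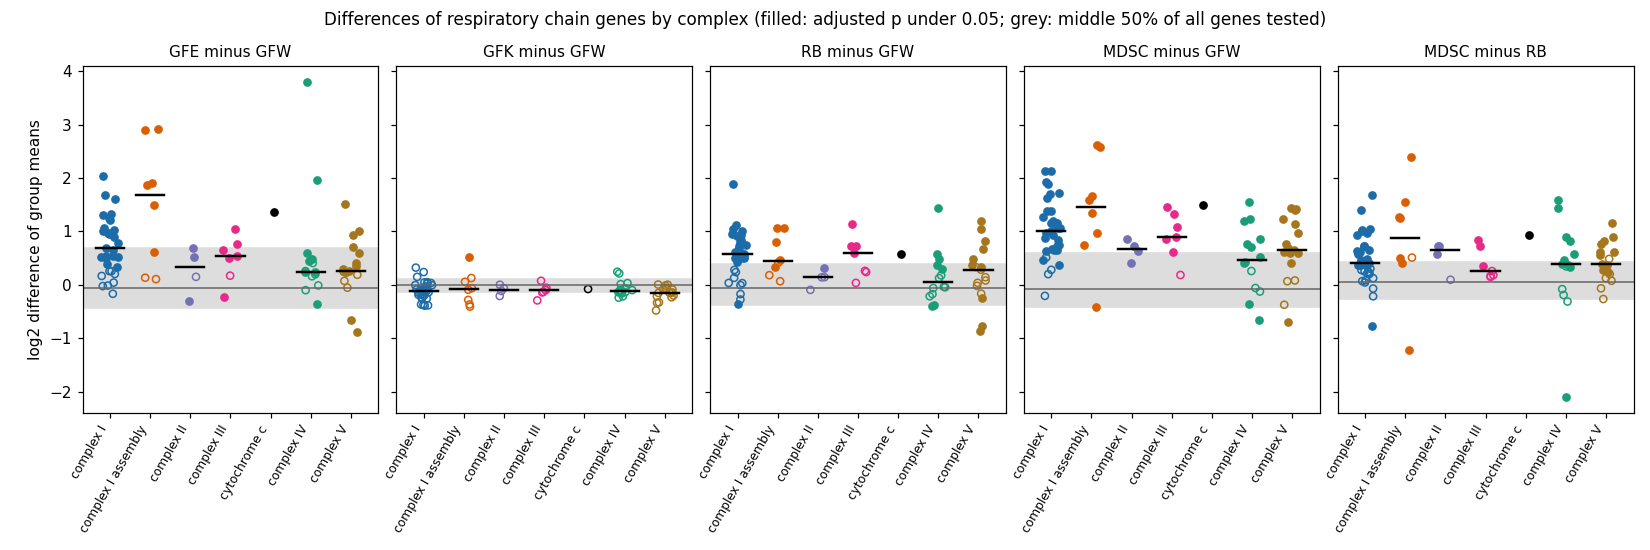
Log2 difference of group means (y axis) for each tested respiratory chain gene (points) by complex (x axis) in the 5 comparisons, filled at an adjusted p under 0.05, with a black bar at the median of the complex; the grey band is the interquartile range of all 14822 genes and the grey line their median. Complex I and its assembly factors have medians of 0.697 and 1.676 in GFE minus GFW, while GFK minus GFW stays within 0.53 of 0.

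Complex I, the largest of the complexes, had the highest median of the 5 complexes in culture and in MDSC minus GFW. In culture 25 of its 33 tested genes were higher and 0 lower (median 0.697 log2), and in MDSC minus GFW 29 were higher and 0 lower (median 1.014). In RB minus GFW 24 were higher and 1, Ndufa1, lower (median 0.579), and in MDSC minus RB 20 were higher and 1, Ndufs5, lower (median 0.403). Over all genes, 35.1% were higher in culture, 32.3% in MDSC minus GFW, 25.8% in RB minus GFW and 27.4% in MDSC minus RB. In the same order, 31.9%, 30.0%, 26.5% and 20.7% were lower. The counts of the other complexes stand against the same shares.

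Ndufa12, an accessory subunit of the peripheral arm, had the widest range of group means in the complex. Its signal was 9.30, 9.47 and 9.24 on the GFW arrays, 9.04, 9.31 and 9.63 on GFK, 11.40, 11.36 and 11.35 on GFE, 10.57, 10.65 and 10.17 on RB, and 11.39, 11.60 and 11.42 on MDSC. GFE and MDSC overlapped each other and lay above every RB array, which lay above every GFW and GFK array. The difference was 2.03 ± 0.15 (SE) log2, or 4.10-fold, in culture (adjusted p = 6.88e-09) and 1.01 in MDSC minus RB (adjusted p = 3.53e-05). A second Ndufa12 probe set gave 1.34 and 1.06 for these, and 0.37 in RB minus GFW where the one used gave 1.12.

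Ndufa4, whose probe set had the highest mean of the group, carries a complex I name although its protein is now placed in complex IV. It was 10.45, 10.48 and 10.47 in GFW, 10.46, 10.28 and 10.32 in GFK, 11.79, 11.87 and 11.70 in GFE, 11.24, 11.47 and 10.96 in RB, and 12.26, 12.08 and 12.21 in MDSC. The groups did not overlap except GFW with GFK, and MDSC was 3.29-fold above GFW (1.72 ± 0.12, adjusted p = 5.17e-09). Ndufa9, a subunit at the joint of the peripheral and membrane arms, was 7.86 ± 0.23 in GFW, 9.55 ± 0.065 in GFE, 8.36 ± 0.34 in RB and 9.75 ± 0.19 in MDSC. Its difference of 1.68 in culture and 1.39 in MDSC minus RB passed (adjusted p = 1.4e-06 and 1.88e-05), while that of RB minus GFW (0.49, adjusted p = 0.0439) was lost without GFW replicate 2 or 3 or RB replicate 1 or 2, where adjusted p reached 0.165. Ndufc2, a membrane-arm subunit, rose by 1.62 in culture and by 0.66 in MDSC minus RB (adjusted p = 5.31e-10 and 2.87e-05). Ndufab1, the mitochondrial acyl carrier protein, had means under the filter level in GFW, GFK and RB. It was over that level on 7 arrays, with all GFE and MDSC arrays among them. The difference was at least 1.30 in culture and at least 1.69 in MDSC minus RB. Since the gene entered the tests through the groups where it was high, its calls are no separate support for these differences. Ndufb5, a further membrane-arm subunit, was 7.46 ± 0.10 in GFW, 8.47 ± 0.028 in GFE, 8.48 ± 0.14 in RB and 9.09 ± 0.024 in MDSC, 1.02 higher in RB minus GFW and 0.61 higher in MDSC minus RB (adjusted p = 7.49e-06 and 0.000799).

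Not all complex I subunits followed this order. Ndufa11, a membrane-arm subunit, was already high in RB: 10.91, 11.02 and 10.89, against 8.90, 9.16 and 9.08 in GFW and 10.31, 10.26 and 10.35 in GFE. MDSC, at 11.38, 11.16 and 11.02, overlapped RB, so that the difference was 1.89 ± 0.16 in RB minus GFW (adjusted p = 9.17e-08) but 0.24 in MDSC minus RB (adjusted p = 0.225). A second Ndufa11 probe set gave smaller differences, 1.13 in RB minus GFW and 0.61 in culture, where the one used gave 1.26. Ndufs1, the large iron-sulfur subunit of the NADH module, differed the other way: 0.04 in RB minus GFW (adjusted p = 0.817), 0.54 in culture and 1.04 in MDSC minus RB (adjusted p = 0.00084 and 1.82e-06). Ndufa1 fell by 0.36 in RB minus GFW (adjusted p = 0.0192) and rose by 0.73 in MDSC minus RB (adjusted p = 8.41e-05). Without GFW replicate 2 the fall had an adjusted p of 0.0516. Ndufs5, with a low signal in all groups, was 6.00 ± 0.21 in RB and 5.23 ± 0.19 in MDSC. It entered the tests through the RB arrays, so its calls are no separate support for this difference.

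The complex I assembly factors separated into genes that were much higher after culture and in MDSC and genes that were not. Ndufaf4 and Ndufaf2 rose most. Ndufaf4, which works with Ndufaf3 at an early membrane-bound step, was 6.09, 5.86 and 6.39 in GFW, 6.18, 5.92 and 6.63 in GFK, 7.27, 7.01 and 7.24 in RB, 8.83, 8.64 and 8.70 in MDSC, and 9.06, 9.05 and 8.99 in GFE. Only GFW and GFK overlapped, and the difference was 2.92 ± 0.16 (7.56-fold) in culture and 1.55 (2.92-fold) in MDSC minus RB (adjusted p = 2.85e-10 and 9.16e-07). Ndufaf2, a paralogue of Ndufa12 that occupies its place during assembly, was 6.32, 5.79 and 6.44 in GFW and 6.47, 6.21 and 6.42 in RB. It was 8.98, 9.09 and 9.18 in GFE and 8.48, 9.06 and 8.75 in MDSC, so RB stood with GFW (0.18, adjusted p = 0.432) and both cultured groups stood apart (2.90 in culture, 2.40 in MDSC minus RB, adjusted p = 1.38e-09 and 2.64e-08).

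Ndufaf1, a core member of the intermediate assembly complex, Ndufaf5, which hydroxylates a subunit, and Ndufaf6 rose by 1.49, 1.86 and 1.90 in culture (adjusted p = 0.000186, 2.78e-06 and 1.56e-07). In MDSC minus RB, Ndufaf1 was 1.27 and Ndufaf6 1.25 higher (adjusted p = 0.00109 and 2.93e-05), and Ndufaf5 differed by 0.51 (adjusted p = 0.0784). Ndufaf8 was higher in culture, RB and MDSC by 0.62, 0.47 and 0.97 against GFW (adjusted p = 0.00168, 0.0148 and 2.95e-05). The call in RB was lost without GFW replicate 3 or RB replicate 2 (adjusted p up to 0.0891) and in a fit of the 6 arrays compared. Ndufaf3 was 0.11 in culture (adjusted p = 0.473) and 0.74 in MDSC minus GFW (adjusted p = 0.000138). Ndufaf7, a methyltransferase that modifies a complex I subunit, was highest in RB and lowest in MDSC. It was 7.78, 7.76 and 7.44 in GFW, 8.58, 8.50 and 8.32 in RB and 7.35, 7.05 and 7.34 in MDSC, so that MDSC lay below every array of both mobilised sets. It rose by 0.80 in RB minus GFW (adjusted p = 7.27e-05) and fell by 1.22 in MDSC minus RB (adjusted p = 6.92e-07) and by 0.42 in MDSC minus GFW (adjusted p = 0.00926, and 0.0545 without MDSC replicate 2).

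**Figure D3:**
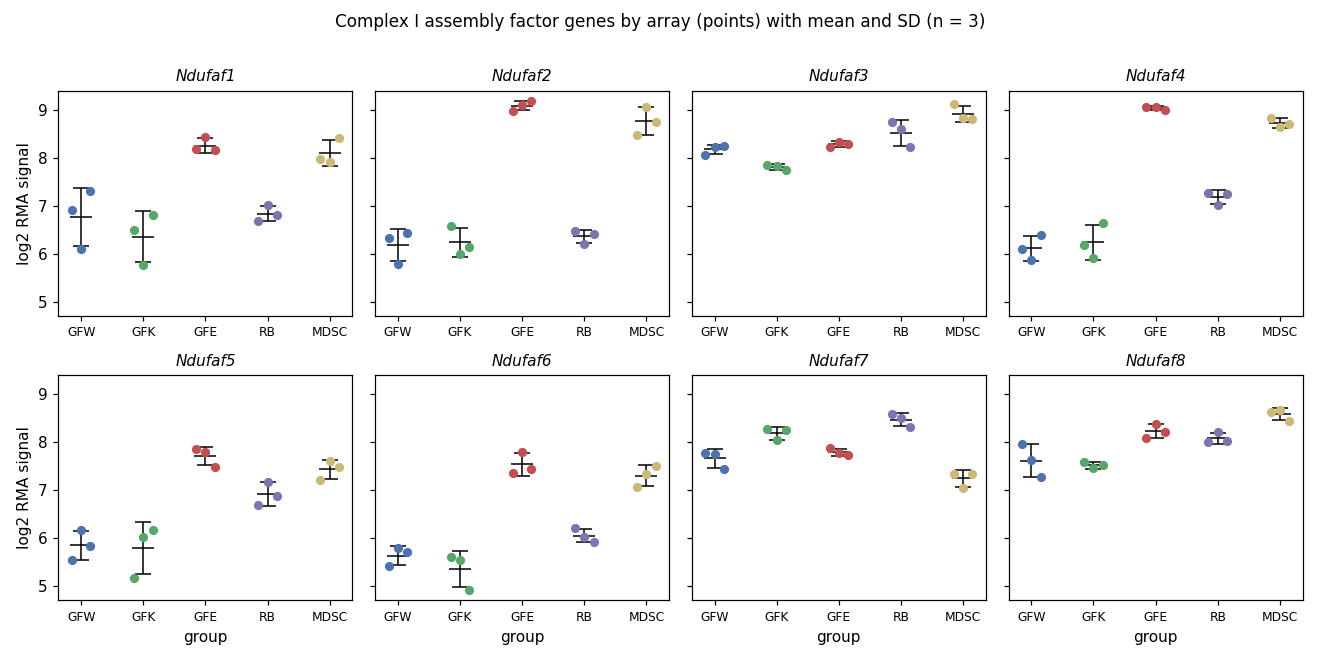
Log2 RMA signal (y axis, shared) of the 8 complex I assembly factor genes by group (x axis), with arrays as points and bars for the mean and SD of 3 arrays. Ndufaf2 sits near 6.2 to 6.4 in GFW, GFK and RB and near 9 in GFE and MDSC, and Ndufaf7 is lowest in MDSC at 7.25.

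Complex II has no mitochondrially encoded subunit. All 4 of its genes were higher in MDSC than in GFW, by 0.40 to 0.87 log2, and 3 were higher in MDSC than in RB. In RB minus GFW only Sdhb was higher and 0 were lower (median of the 4 genes 0.142). That call (adjusted p = 0.0482) reached 0.209 with 1 array left out. Sdha, the flavoprotein that oxidises succinate, was 9.73 ± 0.20 in GFW, 10.25 ± 0.075 in GFE, 9.63 ± 0.11 in RB and 10.37 ± 0.14 in MDSC. It differed by 0.52 in culture and 0.73 in MDSC minus RB (adjusted p = 0.00105 and 6.97e-05), but by -0.09 in RB minus GFW (adjusted p = 0.514). The membrane anchor Sdhc was also higher in culture (0.69, adjusted p = 0.000278). The other anchor, Sdhd, was 9.15, 8.89 and 8.93 in GFW, 8.64, 8.67 and 8.76 in GFE, 9.10, 9.10 and 9.20 in RB, and 9.96, 9.65 and 9.54 in MDSC. It was thus lowest in GFE and highest in MDSC. The fall of 0.30 in culture (adjusted p = 0.0488) was lost in 5 of the 6 fits with 1 array left out, and the rise of 0.58 in MDSC minus RB (adjusted p = 0.00134) was kept in all. Sdhb, the iron-sulfur subunit, differed by 0.15 in culture (adjusted p = 0.287) and 0.40 in MDSC minus GFW (adjusted p = 0.0104).

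Of the 7 genes of complex III, 5 were higher and 1 lower in culture, 6 higher in MDSC minus GFW, and 4 higher in RB minus GFW. Uqcrb, a ubiquinone-binding subunit with the highest signal of the complex, was 9.82, 9.97 and 9.80 in GFW, 10.84, 10.94 and 10.95 in GFE, 10.33, 10.04 and 9.94 in RB and 10.91, 10.99 and 10.92 in MDSC. GFE and MDSC overlapped each other and no other group, with 1.05 ± 0.11 in culture and 0.84 in MDSC minus RB (adjusted p = 6.69e-07 and 1.37e-05). The core protein Uqcrc1 again was high in RB, at 9.68 ± 0.16 against 8.53 ± 0.12 in GFW and 9.31 ± 0.097 in GFE, and MDSC at 9.86 ± 0.025 did not differ from RB beyond the threshold (0.18, adjusted p = 0.271). Uqcr11, a small subunit, had the widest range of group means, from 7.85 in GFK to 9.61 in MDSC, and differed by 1.46 in MDSC minus GFW (adjusted p = 1.24e-06). Its call in culture (0.49, adjusted p = 0.0156) was lost without GFW replicate 1 or 2 or GFE replicate 1 or 2 (adjusted p up to 0.0874). The hinge protein gene Uqcrh was 0.23 lower in culture (adjusted p = 0.0454), a call that was lost without any 1 of 5 of the 6 arrays (up to 0.164).

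Cycs encodes somatic cytochrome c, the carrier between complexes III and IV and, once released from mitochondria, a trigger of apoptosis. Its signal was 10.02, 10.04 and 9.95 in GFW, 9.88, 10.03 and 9.87 in GFK, 11.31, 11.39 and 11.42 in GFE, 10.78, 10.61 and 10.35 in RB, and 11.45, 11.62 and 11.45 in MDSC. Only GFW and GFK overlapped. The difference was 1.37 ± 0.11 (2.59-fold) in culture, 1.50 in MDSC minus GFW and 0.92 in MDSC minus RB (adjusted p = 2.64e-08, 1.12e-08 and 4.51e-06). The differences were also above 0 for all 5 Cycs probe sets, of which a pair had identical values. In RB minus GFW they ranged from -0.31 to 1.39, so the call there (0.58, adjusted p = 0.000543) rests on the choice of probe set.

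The largest differences among complex IV genes were in isoforms known from other tissues. In culture 7 of its 14 tested genes were higher and 1 lower (median 0.246 log2), and in MDSC minus RB 9 were higher and 1 lower (median 0.382). In RB minus GFW 5 were higher and 2 lower (median 0.044), where 25.8% of all genes were higher and 26.5% lower. Of the differences in that comparison 7 were above 0 and 7 below. The ubiquitous forms Cox4i1, Cox5a, Cox6a1 and Cox7b were 0.23, 0.48, 0.24 and 0.60 higher in culture and 0.86, 1.20, 0.72 and 0.76 higher in MDSC minus GFW. The culture calls of Cox4i1 and Cox6a1 (adjusted p = 0.0361 and 0.0433) turned to -0.08 for both when arrays were centred on the genes tested, and reached 0.135 and 0.148 with 1 array left out. Cox5a, a subunit on the matrix side, was 10.63 ± 0.032 in GFW, 11.11 ± 0.03 in GFE, 10.94 ± 0.082 in RB and 11.84 ± 0.034 in MDSC, with no overlap among these groups. Cox8a was 0.41 higher in MDSC minus GFW (adjusted p = 0.00139) and differed by -0.01 in culture (adjusted p = 0.922). For Cox5b the probe sets disagreed: the one used fell by 0.38 in RB minus GFW (adjusted p = 0.01), and the other was 0.78 higher. In MDSC minus RB they gave 0.81 and -0.39.

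Cox6a2, the isoform of subunit 6A known from heart and skeletal muscle, had the largest difference of the 84 genes in any of the 5 comparisons, and was high in the cultured mobilised cells alone. Its signal was 10.55, 10.62 and 10.60 on the GFE arrays, against 6.87, 6.64 and 6.84 on GFW, 7.003, 6.82 and 7.26 on GFK, 6.65, 6.11 and 6.38 on RB, and 6.93, 6.69 and 6.55 on MDSC. Every GFE array was thus more than 3 log2 units above each other array, and the difference was 3.81 ± 0.15 log2, or 14-fold, in culture (adjusted p = 4.5e-12). It remained between 1.09e-10 and 1.54e-10 with any 1 array left out. MDSC minus GFW gave -0.06 (adjusted p = 0.737). The ubiquitous partner Cox6a1 was 11.79 ± 0.096 in GFW and 12.02 ± 0.046 in GFE.

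Cox6b2, the testis isoform of subunit 6B, was high in GFE and in RB and low in MDSC. It was 6.22, 6.51 and 6.66 in GFW, 6.37, 6.33 and 5.96 in GFK, 8.42, 8.45 and 8.39 in GFE, 8.06, 7.73 and 7.93 in RB, and 5.66, 6.15 and 5.62 in MDSC. GFE lay above RB, and RB above the other groups, without overlap. The difference was 1.96 ± 0.16 (3.89-fold) in culture, 1.45 (2.72-fold) in RB minus GFW and -2.10 (4.28-fold lower) in MDSC minus RB (adjusted p = 2.32e-08, 2.03e-06 and 2.13e-08). The ubiquitous Cox6b1 differed by -0.10 in culture (adjusted p = 0.377) and rose by 0.40 in MDSC minus RB (adjusted p = 0.00363).

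Cox7a1, the heart and muscle isoform of subunit 7A, was higher in MDSC alone of the 5 groups. It was 7.31, 7.58 and 7.48 there, against 6.00, 5.65 and 6.10 in GFW, 6.05, 5.50 and 5.70 in GFK, 6.33, 6.54 and 6.09 in GFE and 5.98, 6.11 and 5.53 in RB. The difference was 1.58 ± 0.18 (3.00-fold) in MDSC minus RB (adjusted p = 2.06e-06) and 0.41 in culture (adjusted p = 0.0559). Its ubiquitous partner Cox7a2 was also highest in MDSC: 11.80, 11.80 and 11.71, against 10.41, 10.44 and 10.13 in RB (1.44, adjusted p = 3.24e-08). Cox7a2l, which joins complexes III and IV into supercomplexes, fell by 0.36 both in culture and in MDSC minus GFW (adjusted p = 0.0177 and 0.0178, and up to 0.0903 and 0.066 with 1 array left out). Cox4i2, the isoform known from lung, was called in none of the comparisons, with group means of 6.25 to 6.54. The testis isoforms Cox7b2 and Cox8c and the muscle isoform Cox8b stayed at group means of 3.14 to 3.43, 4.04 to 4.44 and 4.69 to 4.83, and the hypoxia-associated Ndufa4l2 at 5.13 to 5.36, too low to be tested.

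**Figure D4:**
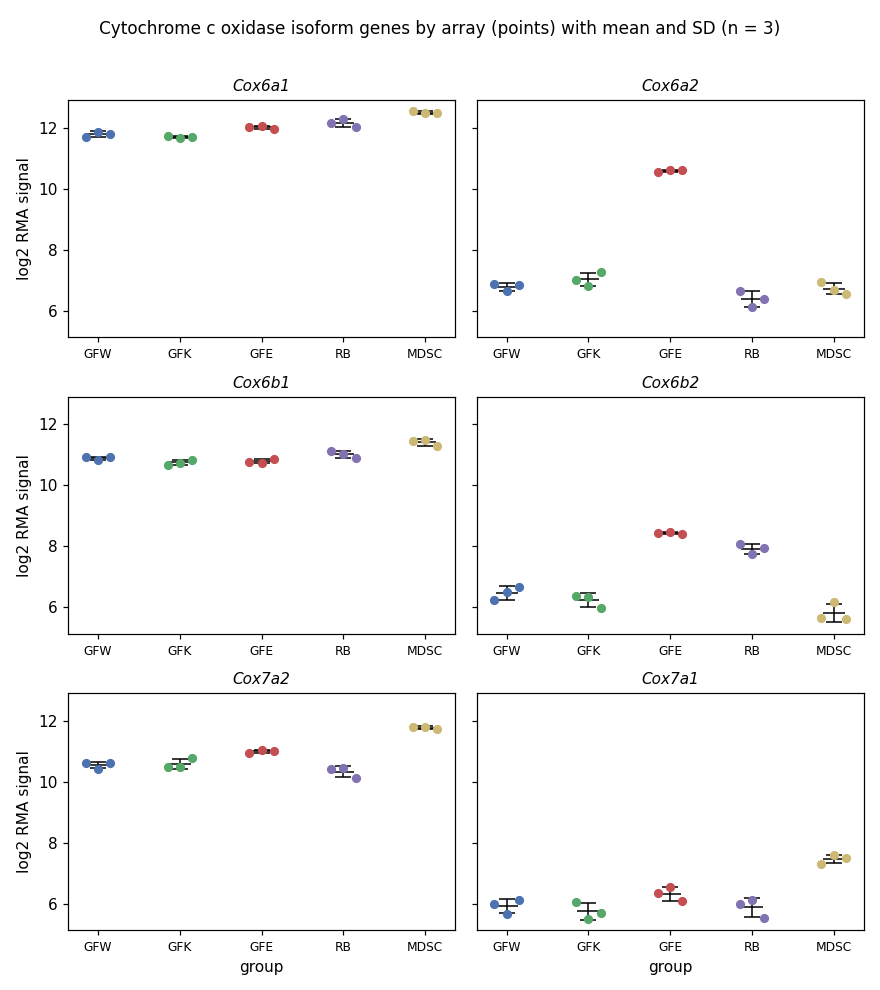
Log2 RMA signal (y axis, shared) of 3 ubiquitous complex IV genes (left) and their tissue-restricted isoforms (right) by group (x axis), with arrays as points and bars for the mean and SD of 3 arrays. Cox6a2 stands at 10.59 in GFE alone, Cox6b2 at 8.42 in GFE and 7.91 in RB, and Cox7a1 at 7.46 in MDSC, while Cox6a1, Cox6b1 and Cox7a2 have their highest means in MDSC.

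Promoters of respiratory chain genes are known for sites of the factors NRF1, GABP (an ETS factor), YY1 and, for some, ERR. Windows of 300 bases from 250 before to 50 after the annotated start (RefSeq, GRCm38.p6) were found for 73 of the 88 genes without the pseudogenes, and not for Cox6a2 among others. The letters GCGCATGC of the NRF1 core, searched on both strands, stood in the windows of 13 of the 73 genes (17.8%), against 5.10% of 11560 tested genes with a window and 3.05% of all 27025. The ETS letters CCGGAAG stood in 19 (26.0%, against 17.0% and 9.93%), the YY1 letters AAGATGGC in 10 (13.7%, against 4.58% and 3.19%), and the ERR letters TCAAGGTCA in 2 (2.74%, against 0.320% and 0.466%). The median GC content was 58.5% in the windows of the 73 genes and 59.7% in those of the tested genes. The NRF1 core stood in 8 of 44 genes with a window that were higher in culture (18.2%) and in 5 of 27 tested genes that were not (18.5%). The ETS letters stood in 10 and 9 of these (22.7% and 33.3%), and the YY1 letters in 8 and 2 (18.2% and 7.41%). For the ERR letters it was 1 and 1 (2.27% and 3.70%). Whether these shares differed was not tested.

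The 150 bases before the start are shown for 3 genes that were higher in culture and carry the NRF1 core, and for Cox6b1, Cox6b2 and Cox7a1, a ubiquitous and 2 tissue-restricted isoform genes of complex IV whose values are given above. Each is written 5′ to 3′ on the gene's strand, with matches to the NRF1 core or the ETS letters, on either strand, in capitals. In order they are chr6:50566570-50566719 on the minus strand, chr4:24897933-24898082 on the plus strand, chr15:102671048-102671197 on the minus strand, chr7:30626115-30626264 on the minus strand, chr7:4753095-4753244 on the minus strand and chr7:30184021-30184170 on the plus strand, all of GRCm38.p6 and 5′ of the transcript.
Cycs: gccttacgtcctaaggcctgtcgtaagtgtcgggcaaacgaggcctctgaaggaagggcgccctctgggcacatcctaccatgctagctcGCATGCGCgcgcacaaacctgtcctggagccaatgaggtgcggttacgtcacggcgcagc
Ndufaf4: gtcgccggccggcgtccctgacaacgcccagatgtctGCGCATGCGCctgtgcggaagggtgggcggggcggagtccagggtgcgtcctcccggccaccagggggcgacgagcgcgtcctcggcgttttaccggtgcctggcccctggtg
Atp5g2: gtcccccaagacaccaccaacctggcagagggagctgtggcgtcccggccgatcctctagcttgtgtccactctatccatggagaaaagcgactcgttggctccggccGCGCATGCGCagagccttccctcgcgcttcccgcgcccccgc
Cox6b1: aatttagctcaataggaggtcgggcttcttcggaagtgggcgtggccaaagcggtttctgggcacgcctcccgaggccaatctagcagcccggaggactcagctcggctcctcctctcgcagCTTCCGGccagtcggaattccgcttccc
Cox6b2: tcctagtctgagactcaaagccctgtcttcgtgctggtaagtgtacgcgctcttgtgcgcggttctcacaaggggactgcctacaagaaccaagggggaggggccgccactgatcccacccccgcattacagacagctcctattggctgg
Cox7a1: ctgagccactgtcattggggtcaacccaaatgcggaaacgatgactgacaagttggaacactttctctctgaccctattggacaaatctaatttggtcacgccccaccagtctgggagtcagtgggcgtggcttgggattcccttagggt
The Cycs match begins 60 bases before the start. Ndufaf4 and Atp5g2 hold a palindromic run that matches on both strands, from 113 and 42 bases before the start. Cox6b1 has an ETS match 28 bases before the start, and none of the searched letters stood in these stretches of Cox6b2 and Cox7a1. In the full windows the ETS letters stood in 3 of 13 complex IV genes. The ubiquitous Cox6a1 was among them, while the ubiquitous Cox5a, Cox7a2 and Cox7b held none of the searched letters.

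Most complex V genes were higher in MDSC than in GFW. In culture 10 of 17 were higher and 2 lower (median 0.263 log2), and in MDSC minus GFW 13 were higher and 1 lower (median 0.651). In RB minus GFW 7 were higher and 3 lower (median 0.284), where 25.8% of all genes were higher and 26.5% lower. The catalytic subunit Atp5b was 10.76, 10.78 and 10.70 in GFW, 10.71, 10.74 and 10.81 in GFK, 11.77, 11.79 and 11.72 in GFE, 10.82, 10.99 and 10.67 in RB, and 11.997, 11.974 and 11.963 in MDSC. RB overlapped GFW (0.08, adjusted p = 0.5), while GFE and MDSC stood above without overlap (1.01 ± 0.10 in culture and 1.15 in MDSC minus RB, adjusted p = 1.52e-07 and 6.62e-08). Its partner in the catalytic head, Atp5a1, was by contrast also higher in RB (0.82, adjusted p = 1.77e-05). Atp5d of the central stalk was highest in RB and MDSC, with 1.20 in RB minus GFW, 0.60 in culture and 0.20 in MDSC minus RB (adjusted p = 1.22e-06, 0.000639 and 0.212). Atp5c1, the gamma subunit of the same stalk, was called in no comparison (0.07 in culture and in MDSC minus GFW). Atp5l, with the highest signal of the complex, lay between 12.15 and 12.58 on all arrays.

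The 3 genes of the c subunit, which encode the same mature protein of the membrane ring with different targeting peptides, differed from one another. Atp5g2 was 10.01, 10.38 and 10.61 in GFW, 11.86, 11.86 and 11.84 in GFE, 11.27, 11.43 and 11.41 in RB and 11.94, 11.79 and 11.57 in MDSC. It rose by 1.52 ± 0.14 (2.87-fold) in culture and by 1.04 in RB minus GFW (adjusted p = 6.76e-08 and 1.22e-05). Atp5g3 rose by 0.41 in culture and 0.82 in MDSC minus RB (adjusted p = 0.00181 and 4.04e-06). Atp5g1 fell, from 6.82 ± 0.36 in GFW to 6.16 ± 0.21 in GFE and 5.96 ± 0.67 in RB (adjusted p = 0.0446 and 0.0156), with scattered RB arrays (5.97, 6.62 and 5.28) and both calls lost in some fits with 1 array left out (up to 0.137 and 0.0894). Atp5j2, the f subunit, was below GFW in culture, RB and MDSC by 0.88, 0.78 and 0.70 (adjusted p = 0.00361, 0.0107 and 0.0156), the last lost without GFW replicate 2 or 3 or MDSC replicate 2 (up to 0.0841). Atp5md, a dimer-associated subunit, was 0.26 higher in culture (adjusted p = 0.0311), a sign that turned to -0.05 when arrays were centred on the genes tested, and 0.91 higher in MDSC minus RB (adjusted p = 1.66e-06).

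The cultured mobilised cells and MDSC could be set side by side through comparisons that share no array, GFE minus GFW and MDSC minus RB. Of the genes higher in each, 41 were higher in both, which was 73.2% of the 56 in culture and 77.4% of the 53 in MDSC minus RB, and 0 were lower in both. Over all genes tested, 2658 were higher in both, 51.1% of those higher in culture and 65.5% of those higher in MDSC minus RB. Of all 84 genes, whatever their call in culture, 53 were higher in MDSC minus RB, so the lists overlap widely by their size alone. Over the 84 genes the differences had a Pearson r of 0.348 and a Spearman rho of 0.446, and over all 14822 genes 0.42 and 0.456. These are descriptions across genes, which are not independent replicates. Cox6b2 and Sdhd were called in opposite directions, whereas Cox6a2 and Atp5j2 were called in culture and not in MDSC minus RB, and Ndufaf7 in MDSC minus RB and not in culture.

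**Figure D5:**
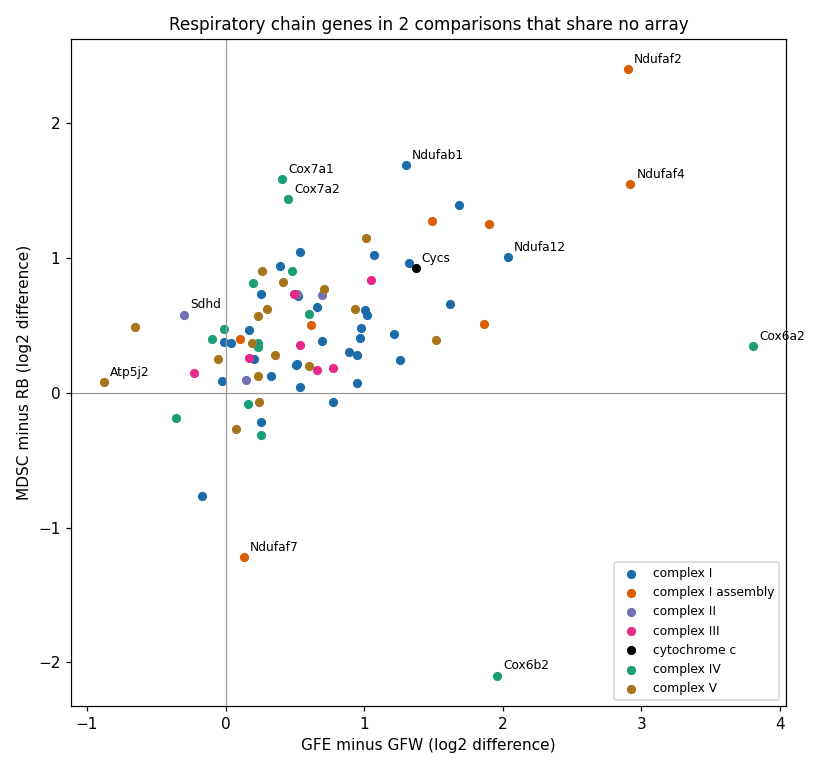
Log2 difference in GFE minus GFW (x axis) against MDSC minus RB (y axis) for the 84 tested respiratory chain genes, coloured by complex, with grey lines at 0. Most points lie in the upper right part of the plot, led by Ndufaf2 and Ndufaf4, while Cox6a2 lies far right at 3.81 and Cox6b2 at the lower right at 1.96 and -2.10.

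On the arrays labelled iNOS knockout (GFK minus GFW), 1 of 84 genes was higher and 0 lower, where 1.30% of all genes were higher and 0.317% lower. The gene was Ndufaf7, at 8.27, 8.04 and 8.25 in GFK against 7.78, 7.76 and 7.44 in GFW (0.53 ± 0.13, adjusted p = 0.0487). Leaving out any 1 of the 6 arrays ended the call (adjusted p 0.0507 to 0.188). The median over the 84 genes was -0.114 log2, against -0.011 over all genes, and 66 of 84 differences were below 0. No subunit gene passed, and the differences of subunits and Cycs ran from -0.48 (Atp5g1, adjusted p = 0.538) to 0.32 (Ndufa11, adjusted p = 0.449).

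Other genes of the pathway were given by lists. Over all genes tested, 35.1% were higher and 31.9% lower in culture, and 27.4% higher and 20.7% lower in MDSC minus RB. Among 9 tested complex I assembly factors that are not named Ndufaf, 9 were higher in culture and 6 in MDSC minus RB, with 0 lower in either. Nubpl, which inserts iron-sulfur clusters, and Ecsit, of the intermediate assembly complex, rose by 1.82 and 1.65 in culture (adjusted p = 3.07e-07 and 4.78e-06). Tmem126b, of the same assembly complex, fell by 0.75 in RB minus GFW and rose by 1.85 in MDSC minus RB (adjusted p = 0.00467 and 9.23e-07). For complex II, 3 of 4 assembly factors were higher and Sdhaf2, which attaches the flavin to Sdha, was 0.54 lower in culture (adjusted p = 0.00117). Among the 3 is Sdhaf3, with a GFW mean of 4.78 under the filter level. It entered the tests through the GFE and MDSC arrays, so its call is no separate support for a difference. Of the complex III factors 4 of 5 tested were higher in culture, led by Uqcc2 (2.27, adjusted p = 1.46e-09), which was also high in RB (1.97 in RB minus GFW, adjusted p = 2.31e-08). Of the complex IV factors 12 of 19 were higher and 1, Pet100, lower in culture. Lrpprc, which stabilises mitochondrial messenger RNA, rose by 2.88 there, and Cox10, a haem synthesis enzyme, by 1.46 (adjusted p = 9.2e-11 and 3.01e-07). All 4 complex V factors were higher in culture, led by Fmc1 (2.07, adjusted p = 3.16e-06).

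Transcripts of the mitochondrial genome itself were measured too. Of 10 tested, 6 were higher and 0 lower in culture, where 35.1% of all genes were higher and 31.9% lower. The median was 0.315 log2, with at most 0.66 for mt-Nd2 (adjusted p = 2.21e-05). In MDSC minus GFW mt-Nd1, mt-Nd2 and mt-Nd3 were higher and mt-Co1 lower (median 0.093), near or under the 32.3% and 30.0% of all genes. In MDSC minus RB mt-Nd2 and mt-Nd3 were higher (median 0.168), and RB minus GFW had 1 higher, mt-Nd4, and 1 lower, mt-Nd6 (median -0.025). These counts were under the shares of all genes, 27.4% higher in MDSC minus RB, and 25.8% higher and 26.5% lower in RB minus GFW. Whether these differed from the nuclear genes was not tested.

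The citric acid cycle and pyruvate dehydrogenase genes, which supply NADH and succinate, were higher in 13 of 16 in culture, 10 in RB minus GFW, 15 in MDSC minus GFW and 13 in MDSC minus RB, with 0 lower in any. Of all genes tested, 35.1%, 25.8%, 32.3% and 27.4% were higher in these comparisons, and 31.9%, 26.5%, 30.0% and 20.7% lower. Idh3a, the catalytic subunit of NAD-dependent isocitrate dehydrogenase, rose by 2.52 in culture and 3.23 in MDSC minus GFW (adjusted p = 1.84e-07 and 1.23e-08), from a GFW mean of 5.44 that lay near the filter level. Suclg2, a subunit of succinyl-CoA ligase, rose by 2.93 in culture and was also higher in GFK (0.65, adjusted p = 0.0169). Of 10 carriers and channels 8 were higher in culture and 10 in MDSC minus RB. The ADP/ATP carrier Slc25a4 rose by 2.32 in culture, and Mpc1, a subunit of the mitochondrial pyruvate carrier, fell by 1.07 (adjusted p = 2.84e-10 and 4.27e-05). Among 15 tested regulators 10 were higher and 3 lower in culture. Myc and Pprc1, a coactivator of NRF1, rose by 2.82 and 2.41 (adjusted p = 9.55e-12 and 2.05e-08), while Nrf1 itself differed by -0.19 (adjusted p = 0.197), and the 3 lower genes were Polg, Esrra and Polg2 (0.51, 0.49 and 0.43 lower, adjusted p = 0.00113, 0.003 and 0.00337). Ppargc1a was too low to be tested.

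Markers of other cell types and of division also differed between the groups, not always in the order of the respiratory chain genes. The 7 markers of dividing cells were all higher in culture and in MDSC minus RB, with medians of 2.36 and 2.41 log2, and 2 were higher and 1 lower in RB minus GFW. Their summed signal was 11.19 to 11.31 log2 in GFW, 11.07 to 11.25 in GFK, 13.11 to 13.13 in GFE, 11.17 to 11.53 in RB and 13.28 to 13.38 in MDSC. The 10 neutrophil markers were all lower in culture (median -5.80), and their sum was 15.42 to 15.47 in GFW, 15.39 to 15.43 in GFK, 9.52 to 9.64 in GFE, 13.29 to 13.44 in RB and 14.33 to 14.42 in MDSC. The 6 monocyte markers were all higher in RB minus GFW (median 2.98), with sums of 14.49 to 14.54 in RB against 12.24 to 12.42 in GFW. The 6 macrophage markers were all lower in culture (sums of 8.91 to 8.99 against 11.04 to 11.18), and the 6 markers of granulocyte-monocyte precursors all higher in MDSC minus RB (13.25 to 13.37 against 9.41 to 9.69). Of the 6 monocyte markers 5 were lower and 0 higher in MDSC minus RB (median -3.12). All 5 tested eosinophil, basophil and mast cell markers were higher there (median 2.09). All 4 tested B cell markers were lower in MDSC minus GFW. In some other comparisons the markers of a set split. Of the neutrophil markers 6 were higher and 3 lower in MDSC minus RB, and 3 higher and 6 lower in MDSC minus GFW. Of the macrophage markers 2 were higher and 4 lower in RB minus GFW. In culture 2 monocyte markers were higher and 4 lower, and 2 precursor markers were higher and 3 lower. The part of the markers in the differences of the respiratory chain genes was not tested.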

How the data were processed

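Total RNA of 15 samples was labelled from 6 ug and hybridised to single-colour Affymetrix arrays, 1 per sample, per the labels' protocols. The deposited values are log2 signals that the authors made with RMA in the oligo package, per the submitters' processing notes; no version or annotation build is given there. RMA equalises the arrays' distributions, so a shift shared by most genes would be reduced. Of 41345 probe sets, 23521 had 1 gene symbol in the platform annotation and were used, 1814 had several and 16010 none. Gene identifiers of 23328 of those were found in RefSeq's GRCm38.p6 table. Where a gene had several probe sets, the one with the highest mean over the 15 arrays was taken. Genes were tested if 3 or more arrays put them over that array's 40th percentile, a level of 5.34 to 5.58 log2; 14822 of 22180 passed. A lower group's mean under that level makes a difference a lower bound.

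One limma 3.58.1 fit in R 4.3.3 over all 15 arrays (lmFit and eBayes, 5 group means, 10 residual and 5.33 prior degrees of freedom) gave 2-sided p-values, adjusted by Benjamini-Hochberg over all genes tested. The fit was checked on simulated data. Correlations between arrays were 0.9728 to 0.9909 within groups and 0.7194 to 0.9798 between groups, and no arrays were identical. Array number limits the precision. Alternatives were scaling each array by its median, no filter, the 6 arrays compared only, a replicate block, the probe set with the lowest mean, each replicate left out and, chosen after seeing the data, scaling by the median of the genes tested. Python 3.11.15, numpy 2.4.6, pandas 2.3.3 and matplotlib 3.10.9 were used for preparation, motif search and figures.

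The members and lists were chosen with earlier results of these data known. Genes were named by a rule: for each complex the member with the highest mean and that with the widest range of group means, for each comparison the 10 called members with the largest difference in each direction, the isoform families and the 4 Sdh genes and Cycs, and up to 4 called genes of each other list by size. Ndufaf8, Atp5a1, Atp5c1, Nrf1, Ppargc1a, and genes named because they were among 5 or fewer called, were chosen after their values were seen.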

Additional observations from a re-analysis of the deposited data

How the results depend on the processing

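Of the results for single genes, 2638 kept their side of the threshold under an alternative. A further 144 kept their direction and lost the threshold, and 32 kept it and gained the threshold. In 6 the direction reversed with a call before or after. Results called in neither fit count among the 2638 whatever their direction. Subtracting each array's median gave 1 gene lower (median 0.652) in GFE minus GFW, 3 lower in RB minus GFW, 1 lower (median 0.977) in MDSC minus GFW and 0 higher in GFK minus GFW. Scaling by the median of the genes tested, an alternative chosen after seeing the data, gave 35 higher, 12 lower and a median of 0.202 in GFE minus GFW, 11 lower and a median of 0.256 in RB minus GFW, 7 lower and a median of 0.595 in MDSC minus GFW, and 7 lower and a median of 0.300 in MDSC minus RB. In GFE minus GFW it turned Cox6a1 to -0.079, Atp5md to -0.052 and Cox4i1 to -0.082. Without a filter 3 genes were lower in GFE minus GFW, 0 higher in GFK minus GFW, and the median of MDSC minus GFW over 90 genes was 0.764. A fit of the 6 arrays compared gave 3 lower in RB minus GFW and 0 higher in GFK minus GFW. With the probe set of the lowest mean, Cycs was -0.076 and Cox5b 0.776 in RB minus GFW, Cox5b was -0.39 in MDSC minus RB, and 0 genes were higher in GFK minus GFW. With 1 array left out, the genes lower ranged from 2 to 3 in GFE minus GFW, 3 to 6 in RB minus GFW and 2 to 4 in MDSC minus GFW, and the genes higher in GFK minus GFW from 0 to 0. The single gene higher in GFK minus GFW, Ndufaf7, thus passed as reported and with the scaling by the genes tested (adjusted p = 0.0487 and 0.0374, limma), and missed the threshold under the other alternatives (adjusted p up to 0.207); the causes were not tested. Deviations of samples with the same replicate number correlated weakly (-0.041 to 0.043). The same number still gave the highest correlation for every replicate in GFK minus GFW and RB minus GFW, though not in the other comparisons. With 3 arrays per group this cannot decide whether the numbers pair the samples. A replicate block gave 55 higher and 3 lower in GFE minus GFW, and 45 higher and 5 lower in RB minus GFW. It gave 69 higher and 4 lower in MDSC minus GFW, 53 higher and 3 lower in MDSC minus RB, and 0 higher in GFK minus GFW. Low-signal genes such as Ndufab1, Ndufs5 and Atp5o have only bounds where a group lies under the filter level.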
